A study of Homo sapiens with 4 samples.

Results

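Clade B serpins are the intracellular branch of the serpin family, and the 9 named here (SERPINB1, SERPINB2, SERPINB3, SERPINB5, SERPINB6, SERPINB7, SERPINB8, SERPINB9 and SERPINB13) were taken from the expression table by gene symbol. Of these 9, 8 had a row among the 16811 genes of the table, and SERPINB9, an inhibitor of granzyme B, was not analysed here. The measured members comprised 6 genes of the 18q21 cluster and 2 of the 3 named genes of 6p25. The cells were MCF12A, a non-tumorigenic human mammary epithelial line whose source is given in the labels as breast cancer cell line, and RNA was sequenced from 2 wild-type (WT) libraries and 2 libraries of the C1orf132 KO genotype. In the edited cells a pair of Cas9 guides had been directed at a distal promoter (p2) of C1orf132, the host gene of miR-29b2 and miR-29c, and both genotypes were grown in the same medium with horse serum, EGF, hydrocortisone, cholera toxin and insulin. Edited colonies were grown from single sorted cells, which colony was sequenced is not given in the sources used here, and a difference due to the edit cannot be told apart from a difference between a clone and its parent line.

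A serpin holds its reactive loop out as bait, and an inhibitory member traps the protease that cleaves it in a covalent complex, so that each molecule acts once. Clade B members mostly lack a signal peptide and guard cells against their own lysosomal and granule proteases, or those of other cells. Maspin (SERPINB5), the member best known in the breast, does not inhibit proteases in this way; it marks basal and myoepithelial cells and is described as a suppressor of tumour growth and invasion. Several 18q21 members are typical of squamous and other stratified epithelia, whereas those of 6p25 are expressed more widely.

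In the edited cells the squamous members SERPINB13 and SERPINB3 were low while maspin was not distinguishable between genotypes. In RNA from whole cultures, fewer cells expressing a gene and less RNA per cell cannot be told apart. Of the 8 members, 2 were called, both lower in edited cells and both in 18q21. A gene was called where limma gave a Benjamini-Hochberg adjusted p under 0.05 in a fit of log2(value + 1). The fit covered the 9590 genes whose mean value reached 10, among them 6 members, or, for SERPINB2 and SERPINB7 below that mean, in a fit of all 16811 genes. For comparison, 7.09% of the 9590 genes were called in either direction and 4.20% as lower, and in the fit of all genes the shares were 4.73% and 3.40%. The median log2 fold change of the 8 members, edited minus wild type, was −0.96, with 6 lower and 2 higher, beside a median of 0.09 over the 9590 genes and 0.01 over all genes. The values are normalised expression signals deposited by the study, their depth is unknown, and each ± below is an SD with n = 2. Nothing in the labels says that replicates came from separate cultures, so the p-values measure the spread between these libraries, which may be technical.

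**Figure D1:**
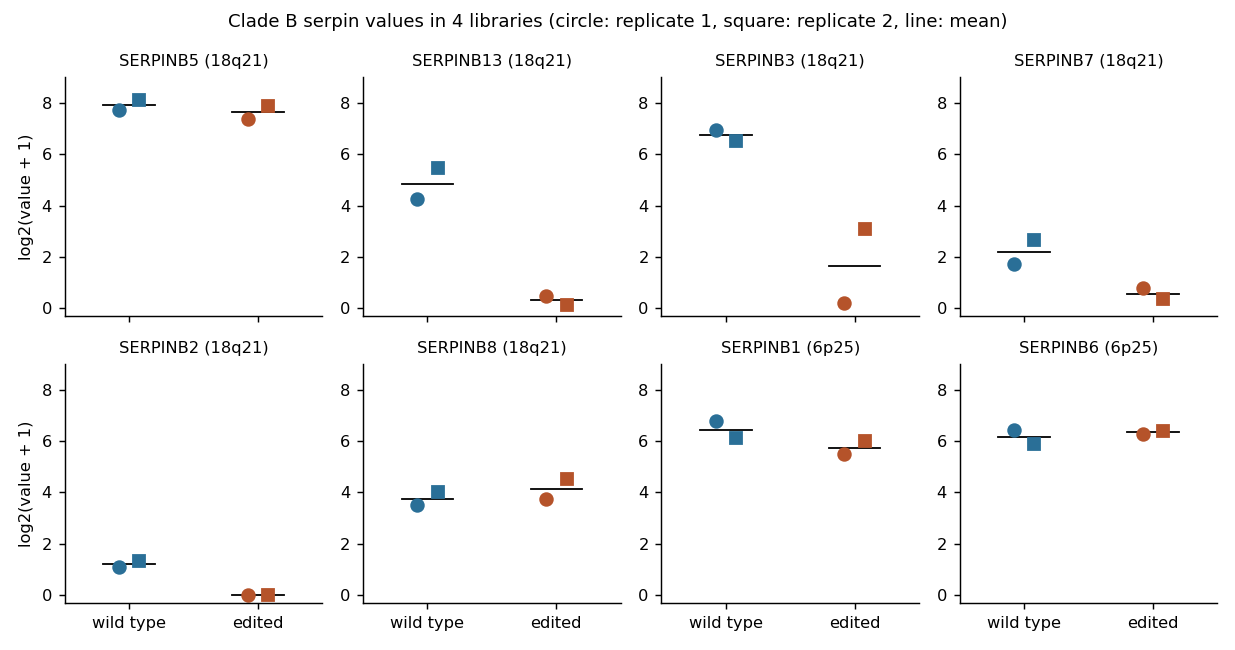
Normalised value of each clade B serpin in the 4 libraries, on a log2(value + 1) axis, with wild-type libraries in blue, edited libraries in orange, replicate 1 as a circle, replicate 2 as a square and the mean of the logs as a line. SERPINB13 and SERPINB3 separated by more than 3 log2 units between nearest libraries, whereas SERPINB5, SERPINB8 and SERPINB6 overlapped between genotypes.

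The edited libraries differed from each other for several genes described here, and leaving out a wild-type library left 47 (without replicate 1) or 4 (without replicate 2) of the 9590 genes called, in place of 680. Summed values were 1655437 and 1652352 in edited cells and 1604212 and 1444644 in wild type, with 180 to 214 genes listed at 0 in a library. Of the 10 epithelial markers, 10 were measured, 5 fell and 1 rose at an adjusted p under 0.05 (limma). The summed value of the 10 was 5185 and 6965 in edited cells against 12360 and 20890 in wild type. The keratins KRT5 and KRT17 made up most of that sum in every library, so it says little of the other markers. Those that fell were KRT17, CDH1, TP63, DSG3 and EPCAM. The marker that rose was KRT8, with a log2 fold change of 1.01 (limma adjusted p = 0.0450). KRT18 also had a positive estimate, 0.89, but did not pass the test (limma adjusted p = 0.30). KRT5, a basal keratin, had values of 3514 and 3056 in edited cells against 4590 and 11910 in wild type. It did not pass the test either (limma adjusted p = 0.146). CDH1, the epithelial cadherin, had 3.89 and 1.54 against 150.5 and 123. VIM, an intermediate filament of mesenchymal cells, had 824 and 1215 against 258 and 194. Of 11 mesenchymal markers 5 were measured, 2 rose and 1 fell, with a sum of 859 and 1449 against 336 and 246. VIM made up most of that sum in every library, so the sum adds little to its values. Those that rose were VIM and CDH2, and the marker that fell was COL1A1, with 3.19 and 5.58 against 15.6 and 28.1. Of 10 leukocyte markers 3 were measured, 1 fell and 0 rose by the same test, with a sum of 42.0 and 60.1 against 71.2 and 88.8. The one that fell was ITGAM, an integrin of myeloid cells, with values of 0.309 and 1.66 against 16.3 and 41.7. The pan-leukocyte gene PTPRC was not analysed here, and 0 of 4 endothelial markers had a row. KRT5, which a basal mammary epithelial line carries, was thus present in every library while CDH1 was near the bottom of the range in edited cells, and the part of these marker differences in the serpin values was not tested. The edit was not checked in these libraries, C1orf132 being not analysed here.

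The start regions of a few members and of SERPINB4 are printed as a description. They are too few to compare members that were called with members that were not. The windows are the 250 bases before the annotated start, 5′ to 3′ on the gene's strand, from RefSeq (GRCh38.p14). SERPINB3, at chr18:63655197-63661893, and its near copy SERPINB4 are shown because both were low in edited cells, with the differing bases in capitals. For SERPINB13 (chr18:63587343-63599192), SERPINB5 (chr18:63476958-63505085) and SERPINB1 (chr6:2832332-2841863), the called member, maspin and a 6p25 member, capitals mark matches to the motifs named after the sequences. On the minus strand, the windows lie at chr18:63661894-63662143 (SERPINB3), chr18:63644257-63644506 (SERPINB4) and chr6:2841864-2842113 (SERPINB1), and on the plus strand at chr18:63587093-63587342 (SERPINB13) and chr18:63476708-63476957 (SERPINB5).
SERPINB3: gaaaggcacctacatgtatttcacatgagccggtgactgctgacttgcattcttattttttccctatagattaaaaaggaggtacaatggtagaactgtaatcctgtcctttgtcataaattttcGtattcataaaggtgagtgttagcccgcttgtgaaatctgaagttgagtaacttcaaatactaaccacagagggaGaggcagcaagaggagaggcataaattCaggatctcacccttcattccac
SERPINB4: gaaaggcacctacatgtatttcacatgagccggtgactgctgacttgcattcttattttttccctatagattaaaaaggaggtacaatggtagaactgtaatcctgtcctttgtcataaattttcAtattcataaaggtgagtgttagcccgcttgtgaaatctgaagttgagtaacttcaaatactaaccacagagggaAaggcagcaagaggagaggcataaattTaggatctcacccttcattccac
SERPINB13: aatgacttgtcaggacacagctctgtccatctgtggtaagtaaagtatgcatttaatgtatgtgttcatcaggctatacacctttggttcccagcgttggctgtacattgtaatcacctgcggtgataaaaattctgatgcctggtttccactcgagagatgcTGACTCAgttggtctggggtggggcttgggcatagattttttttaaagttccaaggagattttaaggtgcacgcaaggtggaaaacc
SERPINB5: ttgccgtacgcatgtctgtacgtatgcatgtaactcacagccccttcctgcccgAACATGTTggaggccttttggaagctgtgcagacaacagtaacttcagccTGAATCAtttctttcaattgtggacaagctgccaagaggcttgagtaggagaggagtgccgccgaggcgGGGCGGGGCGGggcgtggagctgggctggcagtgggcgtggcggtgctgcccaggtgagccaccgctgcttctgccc
SERPINB1: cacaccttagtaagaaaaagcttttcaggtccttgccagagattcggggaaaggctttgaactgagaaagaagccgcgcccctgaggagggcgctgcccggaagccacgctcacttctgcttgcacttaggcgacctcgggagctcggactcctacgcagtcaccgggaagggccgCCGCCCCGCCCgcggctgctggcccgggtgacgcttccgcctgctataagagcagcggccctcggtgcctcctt
The SERPINB3 and SERPINB4 windows were identical at 247 of 250 bases (98.8%). Counted from 1 at the 5′ end, the substitutions from SERPINB3 to SERPINB4 were G126A, G201A and C228T. In SERPINB13 the capitals mark an AP-1 match (TGANTCA), which 6.6% of the 35116 RefSeq windows of this length hold on either strand. The SERPINB5 window held an AP-1 match, a match to AACNNGTT, the core bound by grainyhead-like (GRHL) factors, which 3.0% of windows hold, and 2 GC boxes (GGGCGG) that overlap by 1 base. SERPINB1 held 2 GC boxes on the other strand, which overlap likewise, and 42.6% of windows hold at least 1 such match. Binding at these matches was not measured.

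SERPINB13 (headpin or hurpin), an inhibitor of lysosomal cysteine proteases of the cathepsin L type in keratinocytes, fell in the edited cells. Its normalised value was 0.406 and 0.0966 in the edited libraries and 17.9 and 43.3 in the wild-type libraries. Both edited libraries lay far below both wild-type libraries, and the groups did not overlap. The means were 0.252 ± 0.219 and 30.6 ± 17.9, a 122-fold difference in the means. On the log2(value + 1) scale, which understates the change of low values, the difference was −4.54 (SE 0.51; 95% interval −5.82 to −3.27; limma adjusted p = 0.0148). The call rested on having both wild-type libraries: leaving out the first gave a log2 fold change of −5.16 with a limma adjusted p of 0.0626, and leaving out the second −3.93 with 0.138. Leaving out edited replicates 1 and 2 in turn, the ratio of means was 317 and 75.3, and for wild-type replicates 1 and 2 it was 172 and 71.2. With a pseudocount of 5 the log2 fold change was −2.66 and still passed the test (limma adjusted p = 0.0195).

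SERPINB3, squamous cell carcinoma antigen 1, inhibits papain-like cysteine proteases such as cathepsins L, S and K. Its value was 0.146 and 7.48 in the edited libraries and 123 and 91.5 in the wild-type libraries. The groups did not overlap, but the edited libraries stood 51.2-fold apart, with the second nearer to wild type. The means were 3.81 ± 5.18 and 107 ± 22.4, a 28.2-fold difference, which was 735-fold without edited replicate 2 and 14.4-fold without edited replicate 1. The log2 fold change was −5.10 (SE 0.89; 95% interval −7.31 to −2.90; limma adjusted p = 0.0378), or −6.55 and −3.66 when each edited library alone was set against the wild-type mean. Here too the call was lost when wild-type replicate 1 (−4.89, limma adjusted p = 0.116) or replicate 2 (−5.31, limma adjusted p = 0.192) was left out, and with a pseudocount of 0.1 (−6.28, limma adjusted p = 0.0650).

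SERPINB4, squamous cell carcinoma antigen 2, was not among the 9, but its transcript has some stretches of read length in common with that of SERPINB3. Of the 4 other clade B serpins listed, it was the only one with a row. Values of 0 and 4.55 in edited cells stood against 56.7 and 32.8 in wild type, so that the second edited library was again the higher one and the groups did not overlap. This gave a log2 fold change of −4.23 (SE 0.81; limma adjusted p = 0.0434). The coding sequences of SERPINB3 and SERPINB4 were 95.2% identical, and 178 of the 1633 stretches of 75 bases, the read length, in the SERPINB3 transcript (10.9%) also occurred in that of SERPINB4. No other pair of members shared such a stretch, and the next highest coding identity was 70.6% for SERPINB8 and SERPINB6. How the processing divided reads between SERPINB3 and SERPINB4 is not stated, so their separate values are uncertain.

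SERPINB2, plasminogen activator inhibitor 2 (chr18:63887705-63903888), inhibits urokinase and is expressed in stressed and differentiating epithelium and in macrophages. It was listed at 0 in both edited libraries, and its wild-type values of 1.12 and 1.54 were near the bottom of the measured range. The groups did not overlap, yet the difference was not called, with a log2 fold change of −1.21 (SE 0.27; 95% interval −1.90 to −0.52; limma adjusted p = 0.0673 in the fit of all genes), though it was with no variance trend (limma adjusted p = 0.0465). A listed 0 is not a measure of absence at unknown depth, and no fold is given. The log2 difference itself was −3.82 with a pseudocount of 0.1 and −0.34 with a pseudocount of 5.

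SERPINB7 (megsin; chr18:63753057-63805370), known from kidney mesangium and the upper epidermis, was likewise low. Its value was 0.745 and 0.281 in edited cells and 2.28 and 5.32 in wild type. Both edited libraries lay below both wild-type libraries, with means of 0.513 ± 0.328 and 3.80 ± 2.15. A log2 fold change of −1.61 (SE 0.40; 95% interval −2.62 to −0.59) did not pass the test (limma adjusted p = 0.0786 in the fit of all genes). It was −2.66 with a pseudocount of 0.1 and −0.65 with a pseudocount of 5.

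Maspin (SERPINB5), by contrast, was present in every library. Its value was 165 and 234 in the edited libraries and 213 and 273.5 in the wild-type libraries. The second edited library was above the first wild-type library, so the groups overlapped. The means were 199.5 ± 49.3 and 243 ± 42.9, a ratio of edited to wild type of 0.821. The log2 fold change was −0.30 (SE 0.26; limma adjusted p = 0.475), and its 95% interval, −0.95 to 0.36, contained no change as well as a fall by nearly 1 log2 unit. The estimate was −0.04 and −0.55 when edited replicates 1 and 2 were left out in turn, and −0.48 and −0.11 for wild-type replicates 1 and 2. This interval and that of SERPINB13, its neighbour 110.4 kb away, had no values in common, although the difference between the genes was not tested.

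SERPINB8 (chr18:63970081-64019779), known as an inhibitor of furin, was the 18q21 member with a positive estimate. Its value was 12.4 and 21.9 in edited cells and 10.3 and 15.2 in wild type, and the groups overlapped. The means were 17.2 ± 6.67 and 12.8 ± 3.44. The log2 fold change of 0.37 (SE 0.34; 95% interval −0.46 to 1.21) did not pass the test (limma adjusted p = 0.477), and it was −0.011 without edited replicate 2, 0.76 without edited replicate 1, and 0.11 and 0.63 when wild-type replicates 1 and 2 were left out in turn.

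Of the 6p25 genes, SERPINB1, an inhibitor of neutrophil elastase and related serine proteases, had values of 43.8 and 62.2 in edited cells and 109.6 and 67.5 in wild type. The groups did not overlap, but the gap between the nearest libraries was small. The means were 53.0 ± 13.0 and 88.6 ± 29.7, and the log2 fold change of −0.71 (SE 0.30; 95% interval −1.47 to 0.05) did not pass the test (limma adjusted p = 0.174). It was −0.37 and −1.05 when wild-type replicates 1 and 2 were left out in turn, and −0.46 without edited replicate 1.
SERPINB6 (chr6:2948159-2971793), which inhibits cathepsin G and trypsin-like proteases, had values of 76.0 and 83.2 in edited cells and 84.8 and 57.4 in wild type. The wild-type values lay on either side of the edited ones. The log2 fold change was 0.19 (SE 0.24; 95% interval −0.41 to 0.78; limma adjusted p = 0.628), and it was 0.12 without edited replicate 2, and 0.46 and −0.092 when wild-type replicates 1 and 2 were left out in turn.

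**Figure D2:**
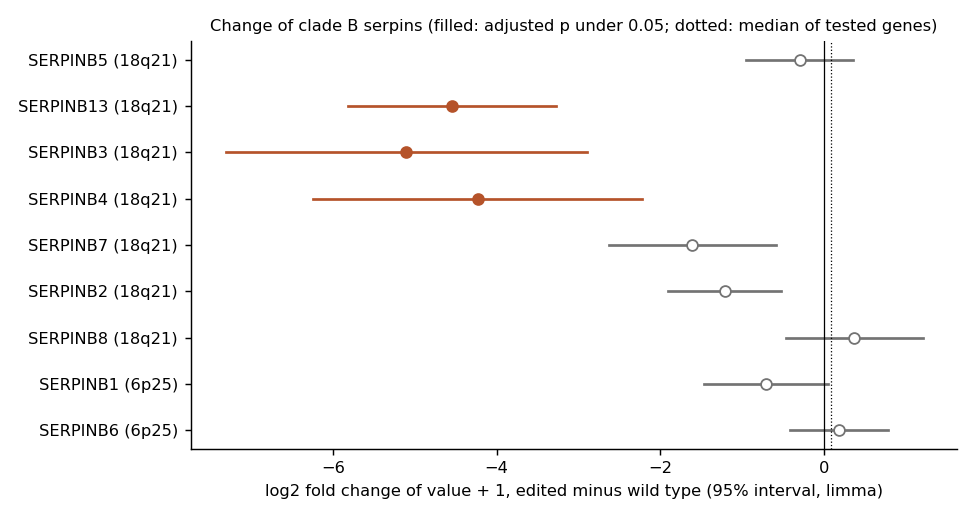
Log2 fold change of value + 1, edited minus wild type, for the 8 members and SERPINB4, with the 95% interval from limma, filled points for an adjusted p under 0.05, a solid line at 0 and a dotted line at the median of the 9590 genes (0.09). The 3 called genes lie between −5.10 and −4.23, and the interval of SERPINB5 spans −0.95 to 0.36.

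The rule set the 18q21 members against those of 6p25. In 18q21, 2 of 6 members were called and the median log2 fold change was −1.41; in 6p25, 0 of 2 were called at an adjusted p under 0.05 (limma) and the median was −0.26. The difference of the medians was −1.15, which was −0.88 and −1.41 when each edited library was set against the wild-type mean, while the wild-type libraries themselves stood at −0.53 and 0.53. Its size depended on the settings: it was −2.98 with a pseudocount of 0.1, −0.25 with a pseudocount of 5, −2.16 over members with a mean of at least 10, and −1.76 and −0.54 when wild-type replicates 1 and 2 were left out in turn. The pooled SD within genotypes was 0.59, and no test was made because genes are not replicates and 6p25 was represented by 2 genes. Groups did not overlap for 5 of 8 members, 4 in 18q21 and 1 in 6p25, beside 61.6% of all 16811 genes in either direction, so that non-overlap alone did not set the members apart. Summed over the 18q21 members, the value was 178 and 264 in edited cells and 367.5 and 430.3 in wild type, and over the 6p25 members 119.9 and 145 against 194 and 125. These sums mix genes of different length, and maspin made up most of the 18q21 sum in every library.

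The 18q21 cluster was not uniform along its length. From the start of SERPINB5 the other members begin 110.4 kb (SERPINB13), 178.2 kb (SERPINB3), 276.1 kb (SERPINB7), 410.7 kb (SERPINB2) and 493.1 kb (SERPINB8) further along chromosome 18, in GRCh38.p14. Both called members lay between the starts of SERPINB5 and SERPINB7, and the members at either end of this series, SERPINB5 and SERPINB8, were not called. SERPINB7 and SERPINB2 were not called either, and with their low values the pseudocount of 1 holds their estimates (−1.61 and −1.21) small. With a pseudocount of 0.1 these were −2.66 and −3.82, beside −6.28 for SERPINB3 and −6.47 for SERPINB13. Position and expression level were therefore not separated here. Of 16 listed 18q21-q22 neighbours outside the family, 9 were measured and 0 were called at an adjusted p under 0.05 by limma, with a median log2 fold change of −0.23. All but TMX3 lie on the SERPINB5 side of the cluster. TMX3 starts 5196.7 kb from the start of SERPINB5, so no listed gene close to SERPINB8 on its far side was measured. The nearest were KDSR, an enzyme of sphingolipid synthesis, with −0.09 (SE 0.22), and VPS4B, an ESCRT ATPase, with −0.42 (SE 0.17; limma adjusted p = 0.157). Of 23 listed 6p25 neighbours 18 were measured, with a median of 0.17, and 1 was called, RPP40, a subunit of ribonuclease P, which rose by 1.58 (limma adjusted p = 0.0178). Among genes with a mean of at least 10 and a RefSeq position, clade B serpins left out, the median was −0.03 on chromosome 18 (112 genes, 4 lower and 0 higher by the limma call) and 0.25 on chromosome 6 (343 genes, 7 lower and 13 higher).

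**Figure D3:**
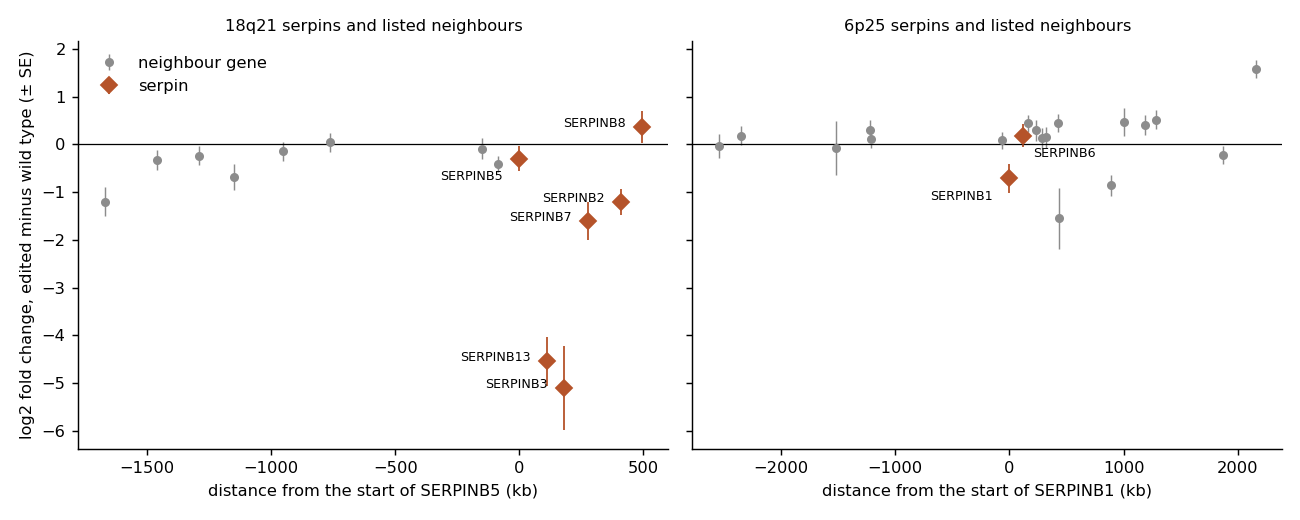
Log2 fold change (edited minus wild type, ± SE) against the distance in kb from the start of SERPINB5 at 18q21 and from the start of SERPINB1 at 6p25, with members as labelled diamonds and listed neighbour genes as grey circles. TMX3, 5196.7 kb from SERPINB5, is not drawn. SERPINB13 and SERPINB3 stand at −4.54 and −5.10 between members with smaller changes, and the nearest neighbours KDSR and VPS4B at −0.09 and −0.42.

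Start regions differed between members in base composition. GC content in the 250 bases before the first start listed for a gene in the RefSeq promoter table was 40.8% for SERPINB3, 44.4% for SERPINB13 and 37.2% for SERPINB2, against 60.0% for SERPINB5, 63.6% for SERPINB1 and 68.8% for SERPINB6, with a median of 58.0% over 35116 windows. SERPINB8 (49.2%) and SERPINB7 (52.0%) lay between these sets. CpG dinucleotides numbered 3 in SERPINB3, 4 in SERPINB13 and 0 in SERPINB2, and 13, 21 and 26 in SERPINB5, SERPINB1 and SERPINB6, beside a median of 11. For SERPINB6 that start lies inside the gene's outer bounds, so that most of its window is within the gene. SERPINB7 has 2 further listed starts with 36.8% and 26.0% GC, and SERPINB6 has 3, with 76.0%, 76.8% and 47.6%. Which start was used in these cells was not measured, and 8 genes are too few to set base composition against change.
A TATA box match (TATAAA, either strand, in 10.7% of windows) was found in SERPINB2, 30 bases before the start, at 2 overlapping positions in SERPINB8, and at 2 positions in the last of the 3 windows of SERPINB7. In the first windows, AP-1 matches were found in SERPINB2, SERPINB5, SERPINB8 and SERPINB13, that is, in members that fell and in members that did not pass the test. An ETS match (GGAAGT, in 19.5% of windows) was found among first windows in SERPINB7 alone, and 3 GC boxes in that of SERPINB6, which overlaps the gene.

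**Figure D4:**
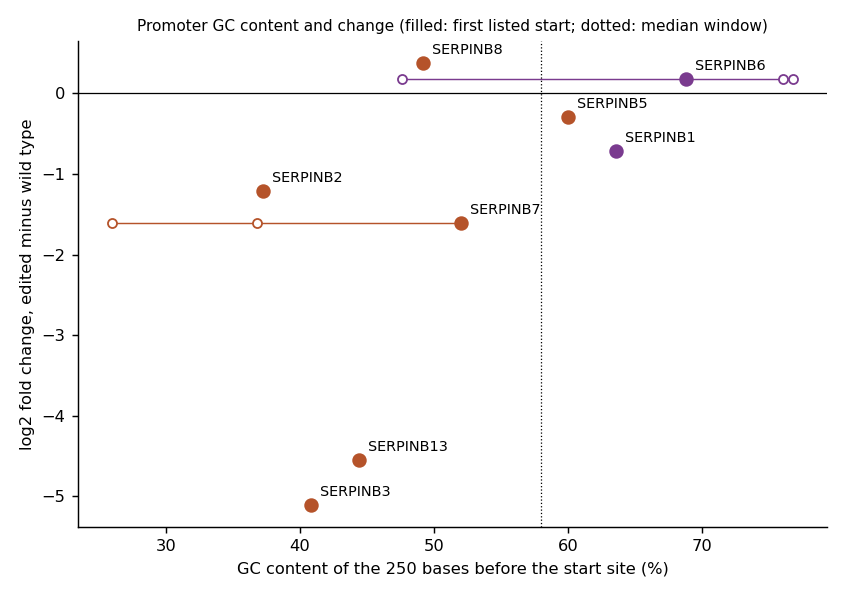
GC content (%) of the 250 bases before each listed start against the log2 fold change of the gene (edited minus wild type), with filled points for the first listed start, open points joined by a line for further starts, 18q21 members in orange and 6p25 members in purple, and a dotted line at the median window (58.0%). SERPINB3 and SERPINB13 lie at 40.8% and 44.4%, and SERPINB5, SERPINB1 and SERPINB6 at 60.0% or more for the first start.

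Because C1orf132 is the host gene of miR-29c, the members' transcripts were searched for its seed match, here with the seed (bases 2 to 8) of the mature RefSeq sequence in capitals.
hsa-miR-29c-3p: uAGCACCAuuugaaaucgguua
The match to this seed, TGGTGCT, occurred in the 3′ UTR of 0 of the 8 members, beside 14.0% of 19403 annotated 3′ UTRs. The members' 3′ UTRs ranged from 139 bases in SERPINB6 to 2096 bases in SERPINB8, with a median of 1068 bases over the annotation, and shorter seed matches were not searched. This says only that these letters do not occur in these UTRs.

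Proteases known as targets of clade B serpins, with the plasminogen activator system, were measured for 15 of 22 listed genes. Of these, 6 fell and 0 rose at an adjusted p under 0.05 (limma), with a median log2 fold change of −1.30. The shares called lower were 4.20% of the 9590 genes and 3.40% of all 16811, and this list too was chosen with earlier results of these data known. The 6 were ST14 (matriptase, a membrane protease of epithelia), at −4.95 (limma adjusted p = 0.00328), the kallikrein-related KLK8 at −3.19 (0.00227) and KLK7 at −2.11 (0.0348), and the cathepsins CTSS at −2.91 (0.0319), CTSV at −1.89 (0.0103) and CTSH at −0.95 (0.0450). CTSS and CTSV, cathepsins of the type that SERPINB3 and SERPINB13 inhibit, had values of 0.886 and 3.26 against 23.1 and 17.9, and of 12.9 and 13.1 against 56.5 and 45.5. Both were lower in both edited libraries, as SERPINB3 and SERPINB13 were, but they are named because they were called. Partners that did not pass the test are given after their values were seen. PLAU, the urokinase that SERPINB2 inhibits, had values of 9.52 and 81.8 in edited cells and 283 and 334 in wild type (limma adjusted p = 0.0770), again with the second edited library nearer to wild type. CTSL had 210.3 and 279 against 291 and 251, and FURIN had 41.2 and 72.0 against 57.6 and 29.2, and the genotypes overlapped for both.

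Of 16 listed transcription factors of stratified epithelium, in which several 18q21 members are expressed, 14 were measured. Of these, 8 fell and 0 rose at an adjusted p under 0.05 (limma), with a median log2 fold change of −1.75. For comparison, 4.20% of the 9590 genes and 3.40% of all 16811 were called lower. The list was chosen with earlier results of these data known, so its count is a description only. TP63, the master factor of basal epithelial identity, had values of 12.6 and 31.2 in edited cells and 134 and 126 in wild type (−2.65, SE 0.41; limma adjusted p = 0.0284). The log2 fold change was −3.93 (SE 0.24) for ELF3, an epithelial ETS factor, and −6.30 (SE 0.29) for EHF, another epithelial ETS factor. GRHL2, a grainyhead-like factor, had values of 0.137 and 0.0460 against 26.1 and 26.2, a log2 fold change of −4.64 (SE 0.37). Whether these factors act on any member, maspin among them, was not tested.

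**Figure D5:**
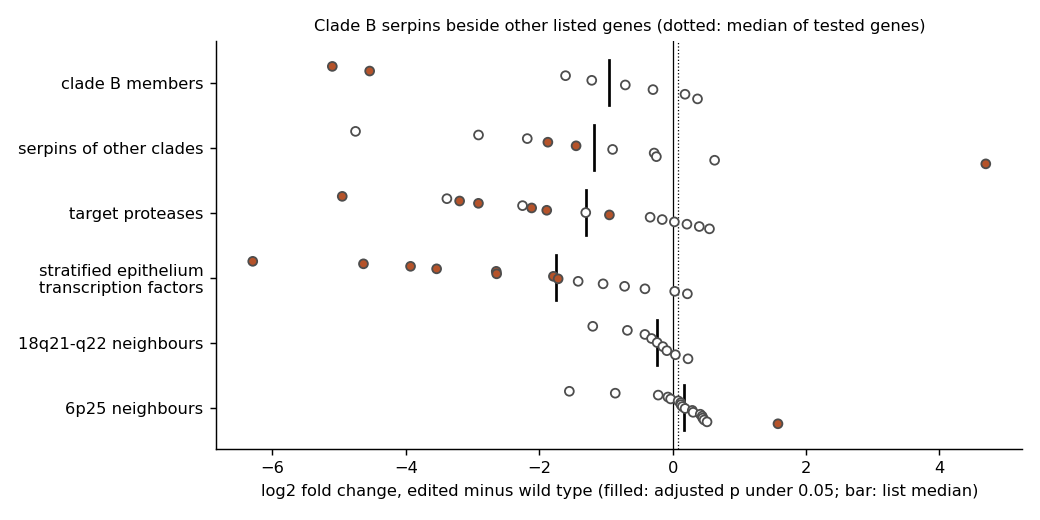
Log2 fold change (edited minus wild type) of the 8 members and of the measured genes of 5 other lists, 1 circle per gene, filled where the limma adjusted p was under 0.05, with a bar at each list's median, a solid line at 0 and a dotted line at the median of the 9590 genes. List medians are −0.96 for the members, −1.30 for the target proteases, −1.75 for the transcription factors and −0.23 and 0.17 for the 18q21-q22 and 6p25 neighbours.

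Genes whose pattern over the 4 libraries was most like that of maspin were sought among 9584 genes with a mean of at least 10, by the Euclidean distance between profiles of log2(value + 1) centred on their means. The nearest were ID1 (0.0390), AGA (0.0546), CAMSAP2 (0.0728), ARSD (0.0745) and CNTNAP3B (0.0991), and 140 genes lay within 0.25. In ID1, an inhibitor of basic helix-loop-helix factors, the values were 383 and 533 in edited cells and 478 and 615 in wild type. In each of these 5 genes the first edited library was lowest and the second wild-type library highest, as in SERPINB5, and with 4 libraries such likeness is a description only.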

How the data were processed

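RNA of MCF12A cells was selected by poly(A), prepared with the TruSeq kit and sequenced on a NextSeq 500 as single reads of 75 bases (2 edited and 2 wild-type libraries, grouped by the genotype label). The deposited values are normalised signal per gene, not counts. The submitters' processing notes name Salmon, HISAT2 and hg38; the normalisation, annotation and versions are not given in the sources used here. Low values of genes with a single transcript were searched for a step of 1 read per length: even the best step left at most 36.4% of values within 0.05 of a whole number, so read depth is unknown and no counting interval or count test was used. Values were tested as log2(value + 1) with limma 3.58.1 in R 4.3.3 (lmFit, eBayes with trend, two-sided, Benjamini-Hochberg), over genes with a mean of at least 10 and, for members below it, over all genes. The pseudocount of 1 understates changes of low genes. Alternatives changed the pseudocount, scaling, variance trend, filter, threshold and replicates. The fit was tested on simulated data first. The members and lists were chosen with earlier results of these data known. All members are named; of each list the called genes are named, at most 6, largest mean first, with KRT5, KRT14, TP63, CDH1, VIM and PTPRC allowed, and the 5 profiles nearest to SERPINB5. Neighbour positions came from RefSeq by symbol (8478 of 9590 genes matched). Promoter windows were cut to the 250 bases upstream of each listed start. Coding and 3′ UTR sequences came from GENCODE v44 lifted to GRCh37, 1 canonical transcript a gene; coding identity is from pairwise alignment. The values of 1 listed gene are not reported here.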

Additional observations from a re-analysis of the deposited data

How the results depend on the processing

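Of the 2 members called, SERPINB3 and SERPINB13, the number called was 1 with a pseudocount of 0.1 (SERPINB3 at an adjusted p of 0.0650, limma), 0 at a threshold of 0.001, and 0 to 2 when each library was left out, with 0 without either wild-type library. The highest number under any alternative was 3, with no variance trend, where SERPINB2 had an adjusted p of 0.0465 (limma). With a replicate block 0 members were called (SERPINB3 adjusted p = 0.0714 and SERPINB13 adjusted p = 0.0566, limma), and calls over the 9590 genes numbered 133 in place of 680. Same-numbered libraries deviated with a correlation of −0.14 over these genes and share only a number. With the numbers crossed, chosen after seeing the data, 2 members and 1002 genes were called. Adjusted p over the other alternatives, without the crossed numbers (limma), ranged from 4.07e-05 to 0.192 for SERPINB3 and from 0.00225 to 0.138 for SERPINB13. The 18q21 median less the 6p25 median was −2.98 with a pseudocount of 0.1, −0.25 with a pseudocount of 5, −2.16 over members with a mean of at least 10, and −1.76 to −0.54 with a library left out. Of 95 values of the members under alternatives, 93 kept their direction. The replicate block, variance trend and filter settings leave a member's fold change as it is, so those values kept their direction by design. With a library left out, SERPINB8 ranged from −0.011 (without edited replicate 2) to 0.76. SERPINB6 ranged from −0.092 (without wild-type replicate 2) to 0.46. The cause was not tested. Calls over the 9590 genes numbered 47 without wild-type replicate 1, 4 without wild-type replicate 2, 424 without edited replicate 1 and 1431 without edited replicate 2. Equal library totals moved the median of these genes from 0.09 to −0.03 and changed no member's direction. The unknown depth limits what can be said of SERPINB2 and SERPINB7.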

Other observations

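Serpins of other clades, which are mostly secreted, had 10 of 14 listed genes measured. Their median log2 fold change (edited minus wild type) was −1.17, and 1 rose and 2 fell at an adjusted p under 0.05 (limma). In either direction, 7.09% of the 9590 genes and 4.73% of all 16811 were called. SERPINE2, protease nexin 1, an inhibitor of thrombin and urokinase outside cells, had values of 122 and 829.9 in edited cells and 21.04 and 5.94 in wild type, with a log2 fold change of 4.70 (SE 0.97; limma adjusted p = 0.0494). SERPING1, the C1 inhibitor of complement, had 6.94 and 8.71 against 35.5 and 27.3 (−1.87, SE 0.23; limma adjusted p = 0.0187). SERPINF1, pigment epithelium-derived factor, had 5.80 and 4.88 against 14.9 and 17.7 (−1.45, SE 0.25; limma adjusted p = 0.0382). SERPINA3, an acute-phase inhibitor named after its values were seen, had 0.626 and 15.4 against 95.1 and 201 and did not pass the test (limma adjusted p = 0.0559). As for SERPINB3, SERPINB4 and PLAU, its second edited library was nearer to wild type.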
